A study of Mus musculus with 44 samples.

Results

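The 10 macrophage-rich lymphomas and the 10 macrophage-poor lymphomas were chosen from 43 lymphomas by the level of 4 macrophage genes. For each lymphoma the log2 levels of C1qa, C1qb, C1qc and Aif1 were averaged after the mean of its array set had been taken off, and the 10 highest and the 10 lowest lymphomas on this score formed the groups. The other 23 lymphomas fell between them. The series held 44 arrays in all, 43 of lymphomas and 1 of a spleen, each from total RNA. The lymphomas arose in Eµ-myc mice, where the enhancer of the immunoglobulin heavy chain locus drives Myc in B lineage cells. All 20 lymphomas of both groups thus carried the same transgene, and the labels give no treatment, age or strain that would tell the groups apart. Some lymphomas had been frozen as tissue and others as cell pellets, and which route a lymphoma took was not stated. Nothing in the labels says that every lymphoma came from another animal, so that p-values measure only the spread between these samples. Each lymphoma is named below by the code in its title, such as D59.

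Macrophages are phagocytes that settle in every tissue, and in lymphoid organs and B cell tumours they take up dying cells, which are plentiful where Myc drives both growth and apoptosis. C1qa, C1qb and C1qc encode the chains of C1q, the recognition part of the classical complement pathway, which tissue macrophages produce themselves. Aif1 encodes Iba1, an actin-binding protein of macrophages and microglia. The transcription factor PU.1 binds purine-rich sites in the promoters of many macrophage genes, and interferon-induced genes often carry an element with repeated GAAA blocks.

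The promoter windows of C1qb, C1qc and Aif1, which chose the groups, are printed from RefSeq (GRCm38.p6). Those of Cd68, a macrophage marker, and Cfp, a complement gene, follow, both among the genes with the smallest p-values. The last window is that of Gbp2, an interferon-induced GTPase. Each window runs 5′ to 3′ on the gene's strand, from 250 bases before to 50 bases after the annotated start. The window of C1qb lies at chr4:136886151-136886450 on the minus strand and that of C1qc at chr4:136892865-136893164 on the minus strand, in the same gene cluster, to which C1qa also belongs. The window of Aif1 lies at chr17:35176003-35176302 on the minus strand, that of Cd68 at chr11:69666121-69666420 on the minus strand, that of Cfp at chrX:20931506-20931805 on the minus strand and that of Gbp2 at chr3:142620413-142620712 on the plus strand. Capitals mark the letters GAGGAA on either strand, the core of a PU.1 motif, except in Gbp2, where they mark GAAANNGAAA, the core of an interferon-stimulated response element, on either strand; the searches for the motifs did not overlap.
C1qb: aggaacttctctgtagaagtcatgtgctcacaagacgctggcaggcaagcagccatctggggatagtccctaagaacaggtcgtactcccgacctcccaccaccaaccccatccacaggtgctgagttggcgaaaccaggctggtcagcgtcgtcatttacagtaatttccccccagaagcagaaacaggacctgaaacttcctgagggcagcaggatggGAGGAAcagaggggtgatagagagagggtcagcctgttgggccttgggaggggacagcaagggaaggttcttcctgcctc
C1qc: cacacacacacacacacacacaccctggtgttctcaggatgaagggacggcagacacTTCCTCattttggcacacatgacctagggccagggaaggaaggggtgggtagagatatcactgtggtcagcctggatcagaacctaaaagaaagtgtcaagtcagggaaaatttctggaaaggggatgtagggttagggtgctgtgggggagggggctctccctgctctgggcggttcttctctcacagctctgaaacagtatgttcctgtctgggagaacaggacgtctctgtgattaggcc
Aif1: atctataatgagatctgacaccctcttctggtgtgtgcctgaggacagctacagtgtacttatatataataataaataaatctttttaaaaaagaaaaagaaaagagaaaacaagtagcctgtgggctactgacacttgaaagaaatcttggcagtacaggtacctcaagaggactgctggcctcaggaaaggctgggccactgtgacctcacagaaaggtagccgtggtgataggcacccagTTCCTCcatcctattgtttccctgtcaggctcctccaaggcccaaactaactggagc
Cd68: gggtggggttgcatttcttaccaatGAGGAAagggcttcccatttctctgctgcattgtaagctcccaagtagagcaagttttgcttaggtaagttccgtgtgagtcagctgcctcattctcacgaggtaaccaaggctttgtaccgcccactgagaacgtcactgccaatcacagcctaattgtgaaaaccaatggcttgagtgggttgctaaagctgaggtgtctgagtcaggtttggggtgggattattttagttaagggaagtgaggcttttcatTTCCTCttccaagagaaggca
Cfp: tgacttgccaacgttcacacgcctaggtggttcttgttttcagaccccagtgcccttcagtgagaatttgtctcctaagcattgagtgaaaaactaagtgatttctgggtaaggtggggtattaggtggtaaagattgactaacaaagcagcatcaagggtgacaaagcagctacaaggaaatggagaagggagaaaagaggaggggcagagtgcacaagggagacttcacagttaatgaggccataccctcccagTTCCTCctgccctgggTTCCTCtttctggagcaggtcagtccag
Gbp2: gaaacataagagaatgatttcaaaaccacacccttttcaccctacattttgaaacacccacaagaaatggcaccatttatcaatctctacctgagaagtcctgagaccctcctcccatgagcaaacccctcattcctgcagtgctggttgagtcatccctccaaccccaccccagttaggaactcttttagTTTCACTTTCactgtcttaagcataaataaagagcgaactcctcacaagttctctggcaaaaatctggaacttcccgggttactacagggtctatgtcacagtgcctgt
GAGGAA stood at least once in 29.9% of the 1059 windows of genes higher in macrophage-rich lymphomas, in 27.3% of the 1628 windows of lower genes and in 28.3% of all 32851 windows. GAAANNGAAA stood in 5.6% of the windows of higher genes, in 2.3% of those of lower genes, in 3.3% of those of tested genes and in 3.4% of all windows. A match is a run of letters and was not tested as a binding site.

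The 4-gene score lay between 1.24 and 4.57 in the macrophage-rich lymphomas (median 2.11) and between -2.06 and -1.36 in the macrophage-poor ones (median -1.67), in log2 units around the mean of each array set. D59 was highest with 4.57, ahead of D163 with 3.88, D78 with 3.37 and D52 with 2.95, and D89 was the lowest member of that group with 1.24. The nearest lymphomas outside the groups were D117 with 1.14 and D92 with -1.09, so the upper boundary in particular ran through a continuous series of values. These values chose the groups and are given without a test.

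**Figure D1:**
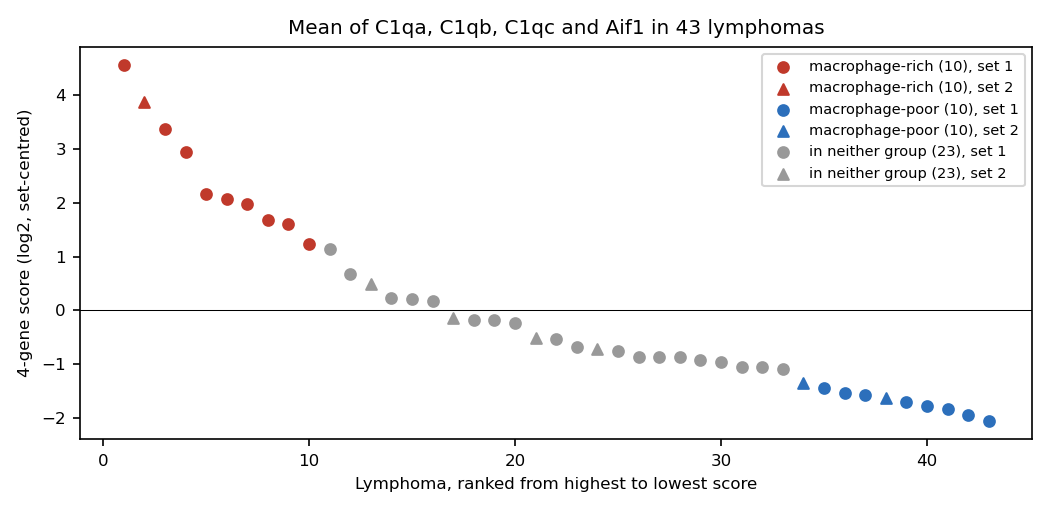
The 4-gene score (vertical axis, log2, centred on the lymphoma mean of each array set) of 43 lymphomas ranked from highest to lowest (horizontal axis); circles are lymphomas with title numbers up to D117 and triangles those above it. The 10 macrophage-rich lymphomas (red) spread from 4.57 to 1.24, and the 10 macrophage-poor lymphomas (blue) are packed between -1.36 and -2.06.

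All levels below are log2 levels of the probe set that stands for a gene, adjusted to the mean of the array sets. C1qb had a lowest, median and highest level of 8.94, 10.02 and 12.24 in macrophage-rich lymphomas, and of 4.49, 4.67 and 5.34 in macrophage-poor lymphomas. For C1qa the same values were 8.62, 9.37 and 11.99 in the rich group and 4.78, 5.43 and 5.80 in the poor group. C1qc lay at 8.35, 9.51 and 11.77 in rich lymphomas and at 4.75, 5.21 and 5.56 in poor lymphomas. Aif1 had the smallest gap, with 6.24, 7.77 and 9.89 in rich lymphomas and 5.16, 5.53 and 5.79 in poor lymphomas. None of the 4 genes overlapped between the groups, which the choice of the groups fixed for their mean. Each array came from bulk tissue or cells, so that fewer macrophages and less RNA of a gene per macrophage cannot be told apart in these data.

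Several properties of the samples ran along with the groups. The array sets, which differed in their column medians (6.22 to 6.46 for 36 lymphomas with title numbers up to D117, 6.86 to 6.96 for the 7 above), were spread over both groups, with 1 rich lymphoma (D163) and 2 poor lymphomas (D143 and D161) in the smaller set. In the 9 rich lymphomas of the larger set the column medians were 6.29 to 6.46, against 6.25 to 6.31 in its 8 poor lymphomas. In the rich group 9 of 10 lymphomas (all but D89) stood apart, by over 3.5 median absolute deviations, in the mean of at least 1 list of genes of other cells or in pan B cell genes, against 0 of 10 poor lymphomas and 3 of the other 23. Eif2s3y, which lies on the Y chromosome, was above the array median in 1 of 10 rich lymphomas and 7 of 10 poor lymphomas. Gcsam, a gene of germinal centre B cells, was above the array median in 3 rich lymphomas (D163, D78 and D88) and 1 poor lymphoma (D84). Whether these properties account for any difference below was not tested.

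Across 8578 genes, 2631 (30.7%) were called, of which 1041 (12.1%) were higher and 1590 (18.5%) were lower in macrophage-rich than in macrophage-poor lymphomas (limma with the array set as a term, adjusted p under 0.05). Of the higher genes 466 differed at least 2-fold, against 93 of the lower genes, so the differences upward were the steeper ones. In 82 genes (0.956%) all 10 rich lymphomas lay above all 10 poor lymphomas, and in 54 genes (0.630%) all lay below. Among the 1041 higher genes 103 were above their array's median in rich lymphomas only, and so entered the test through that group. Of all calls 39.6% were upward, and 28.6% when the arrays were brought to equal medians (902 higher, 2252 lower), where the median difference of all genes moved to -0.14 from -0.07. With the mean of Gcsam and Basp1 as a covariate (the germinal centre covariate below) 173 genes were higher and 139 lower, 152 and 113 of them among the calls above. Basp1 did not overlap between the groups, so this covariate and the group share much of their variation. A call lost in that fit therefore cannot be assigned to either of them. With Eif2s3y as a covariate 532 genes were higher and 599 lower. Without D163, the rich lymphoma of the smaller array set, 784 genes were higher and 1085 lower.

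Macrophage genes that had no part in choosing the groups were higher as well. Of 20 tested genes of macrophage identity 15 were higher in macrophage-rich lymphomas and none lower, with a median difference of 1.72 (all genes: -0.07). Cd68, a lysosomal glycoprotein of macrophages, had a lowest, median and highest level of 8.12, 9.65 and 11.15 in rich lymphomas and of 5.65, 6.18 and 6.73 in poor lymphomas. The groups did not overlap, and the difference was 3.46 ± 0.30 (SE, n = 10 each, adjusted p = 7.23e-07). Csf1r, the receptor for the growth factor on which macrophages depend, lay at 8.83, 10.58 and 12.13 in rich lymphomas and at 6.66, 7.88 and 9.01 in poor lymphomas. Only the lowest rich and the highest poor values crossed, and the difference was 2.50 ± 0.41 (adjusted p = 0.000328). Adgre1, which encodes the mouse macrophage marker F4/80, spanned 5.95, 7.15 and 9.79 in rich lymphomas and 5.22, 5.73 and 5.92 in poor lymphomas, a gap of 1.53 ± 0.33 (adjusted p = 0.00281) without overlap.

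Other members of the macrophage list rose as well. Sirpa, the inhibitory receptor that binds CD47, was higher by 1.85 ± 0.22 (adjusted p = 1.98e-05) and without overlap, as was Ms4a7 by 2.73 ± 0.41 (adjusted p = 0.000205), a membrane protein of tissue macrophages. Clec4n, a C-type lectin receptor for fungal sugars (Dectin-2), rose by 2.32 ± 0.35 (adjusted p = 0.000196). Lyz2, the lysozyme of myeloid cells, had high levels in every sample, with 10.10, 12.20 and 13.22 in rich lymphomas and 7.21, 9.27 and 10.50 in poor lymphomas. Its difference was 2.51 ± 0.44 (adjusted p = 0.000634), with the groups overlapping slightly. Tyrobp, the adaptor of many myeloid receptors, rose by 2.21 ± 0.41 (adjusted p = 0.000965). Spi1, the gene of PU.1, which B cells express too, differed by 0.09 ± 0.10 (adjusted p = 0.503), and Cebpb, Cx3cr1, Trem2 and Itgam also missed the threshold. With the germinal centre covariate 4 of the 20 genes were called, with Cd68 (3.28, adjusted p = 0.00111), Sirpa and Adgre1 among them but not Csf1r.

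Many genes for the uptake of dying cells were higher in macrophage-rich lymphomas. Of 19 tested genes of apoptotic cell clearance 11 were higher and none lower (median 0.97). As 8 of the 19 entered the test through the rich group, this count and median are a description. Tgm2, a transglutaminase that helps macrophages engulf apoptotic cells, had levels of 6.60, 8.13 and 10.17 in rich lymphomas against 4.44, 4.71 and 5.06 in poor lymphomas. All rich lymphomas lay above all poor ones, and the difference was 3.71 ± 0.31 (adjusted p = 6.19e-07). Abca1, which exports the cholesterol taken in with engulfed cells, spanned 8.69, 9.96 and 12.18 in rich lymphomas and 5.04, 6.31 and 7.44 in poor lymphomas, also without overlap (3.91 ± 0.39, adjusted p = 5.31e-06). Mertk and Axl, receptor kinases that recognise bridged phosphatidylserine on dying cells, were higher by 2.05 ± 0.36 (adjusted p = 0.000639) and 2.52 ± 0.37 (adjusted p = 0.000178), neither with overlap. Both were above the array median in 8 rich lymphomas and in no other lymphoma, and entered the test through the rich group.

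Further members of the clearance list behaved alike. Cd5l, a secreted macrophage protein that binds lipids, was higher by 3.28 ± 0.44 (adjusted p = 8.64e-05) and Msr1, the class A scavenger receptor, by 1.49 ± 0.17 (adjusted p = 2.14e-05). Cd36, a scavenger receptor for oxidised lipids, rose by 2.72 ± 0.70 (adjusted p = 0.0078), with a lowest and highest level of 5.46 and 11.86 in rich lymphomas and of 4.58 and 8.08 in poor ones, so that the groups overlapped. Anxa5, which binds phosphatidylserine and stood outside the list, rose by 2.77 ± 0.28 (adjusted p = 5.31e-06). Of the 19 list members 8 were above their array's median in rich lymphomas only. Of the 19, 6 were called with the germinal centre covariate.

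Lipid, iron and lysosome genes of macrophages followed. Among 17 scavenger and lipid handling genes 12 were higher and none lower (median 1.50). Apoe, the apolipoprotein that macrophages secrete, had levels of 9.36, 9.92 and 12.47 in rich lymphomas, against 5.33, 6.34 and 9.46 in poor lymphomas. A single poor lymphoma, D84 with 9.46, reached the lowest rich value, and the difference was 3.95 ± 0.49 (adjusted p = 4.47e-05). Lpl, lipoprotein lipase, rose by 3.47 ± 0.50 (adjusted p = 0.000164) and Fabp4, a fatty acid carrier of adipocytes and macrophages, by 3.63 ± 0.66 (adjusted p = 0.000864), both without overlap. Lipa, the lysosomal acid lipase, rose by 1.50 ± 0.20, Gpnmb, a glycoprotein of phagocytes, by 2.14 ± 0.33, Mrc1, the mannose receptor, by 2.17 ± 0.53 and Marco, a receptor of marginal zone macrophages, by 1.46 ± 0.38 (adjusted p from 7.52e-05 to 0.00772). The adipocyte list was high in D59, D35 and D34 of the rich group, at 6.28, 2.76 and 1.79 above the set mean, against -0.67 to 0.27 in poor lymphomas, and its part in Fabp4 and Lpl was not tested. Of the 17 genes, 8 were called with the germinal centre covariate.

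Of 13 iron and heme genes 7 were higher and none lower (median 0.64). Hmox1, the heme oxygenase, rose by 1.59 ± 0.29 (adjusted p = 0.000746), Slc11a1, a phagosomal metal transporter, by 1.63 ± 0.21 (adjusted p = 8.64e-05) and Cp, ceruloplasmin, by 2.27 ± 0.39 (adjusted p = 0.0005). Vcam1, Slc40a1, which encodes the iron exporter ferroportin, and Spic mark the red pulp macrophages of the spleen. They differed by 1.78 ± 0.39 (adjusted p = 0.00268), 2.10 ± 0.69 (adjusted p = 0.027) and 0.58 ± 0.17 (adjusted p = 0.017), and without D163 Slc40a1 (1.93, adjusted p = 0.0719) and Spic (0.52, adjusted p = 0.0523) missed the threshold. Slc40a1 had lowest and highest levels of 5.13 and 11.43 in rich lymphomas and of 5.20 and 6.84 in poor lymphomas, so it was high in only some of the rich group. Slc11a1 and Spic were above the array median in 9 and 2 rich lymphomas and in no other lymphoma.

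The lysosome list had 18 of 24 genes higher and none lower (median 0.86). Cathepsin L (Ctsl), a protease of the lysosome, had levels of 8.25, 9.86 and 12.05 in rich lymphomas and 5.71, 6.69 and 7.35 in poor lymphomas. The groups did not meet, with a difference of 3.31 ± 0.40 (adjusted p = 3e-05). The proteases Ctsb and Ctsd also separated the groups in full, by 2.14 ± 0.23 (adjusted p = 8.52e-06) and 1.93 ± 0.22 (adjusted p = 1.22e-05). These 3 cathepsins were among the 8 of 24 genes called with the germinal centre covariate.

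Complement genes beyond C1q rose in part. Cfp, properdin, which stabilises the convertase of the alternative pathway, had the smallest p-value of all genes tested. Its levels were 7.93, 8.49 and 9.43 in rich lymphomas and 5.57, 6.04 and 6.32 in poor lymphomas. Every rich lymphoma exceeded every poor one by more than a log2 unit, and the difference was 2.73 ± 0.17 (adjusted p = 8.17e-09). Cfb, factor B of the same pathway, rose by 2.18 ± 0.48 (adjusted p = 0.00285) and Itgb2, a chain of the complement receptor CR3, by 1.44 ± 0.30 (adjusted p = 0.00218). In all, 5 of 9 other complement genes were higher and 1 was lower, Cd55, which protects cells from complement (-0.96 ± 0.36, adjusted p = 0.0486), a call lost in 15 of the 20 fits that left out 1 lymphoma (D59, D163 and D64 among them; -0.82 to -1.01).

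Among 7 Fc receptor genes 5 were higher and none lower (median 2.08). Fcgr3 rose by 2.29 ± 0.37 (adjusted p = 0.000299), Fcgr4 by 2.23 ± 0.43 (adjusted p = 0.00132) and Fcgr1, the high-affinity receptor for IgG, by 2.08 ± 0.54 (adjusted p = 0.00818). Fcer1g, their shared signalling chain, rose by 2.15 ± 0.41 (adjusted p = 0.0012). Fcgr1 was above the array median in 4 rich lymphomas and in no other lymphoma. With the germinal centre covariate none of the 7 was called, though the differences of Fcgr4 (2.25), Fcgr1 (2.47) and Fcgr3 (1.88) stayed of similar size and the list median was 1.53. Of the 9 complement genes 2 were called.

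**Figure D2:**
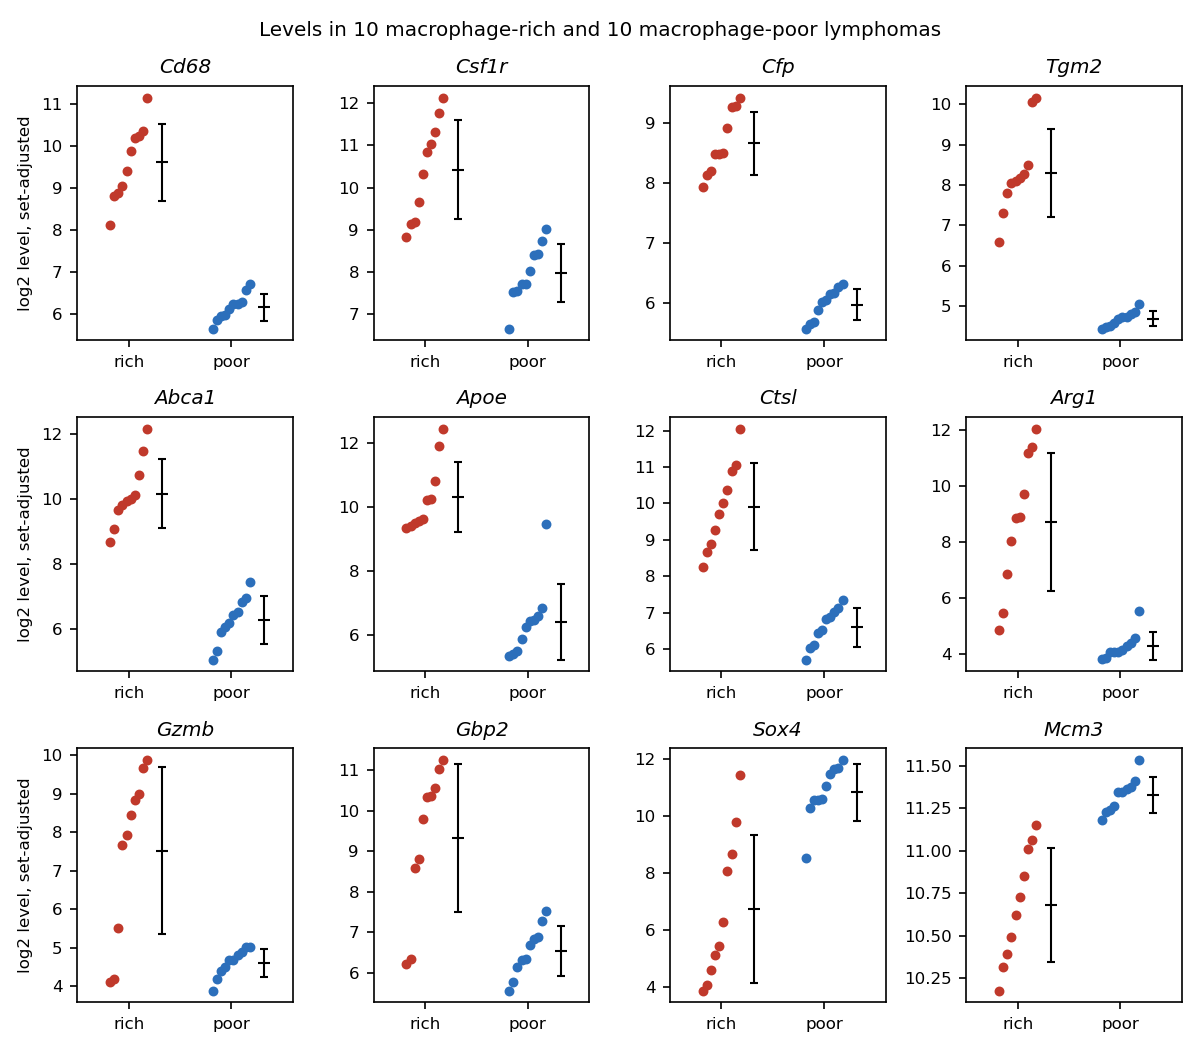
Set-adjusted log2 levels (vertical axes) of 12 genes in each of 10 macrophage-rich (red, left) and 10 macrophage-poor (blue, right) lymphomas; points within a group are ordered by level, and black bars give the mean and SD. Cd68, Cfp, Tgm2, Abca1 and Ctsl do not overlap, Arg1, Gzmb and Gbp2 are low in some of the rich lymphomas, Apoe has 1 high poor lymphoma, and Sox4 and Mcm3 are lower in the rich group.

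Genes of inflammatory and of alternative macrophage activation both contained higher members. Arg1, arginase 1, a marker of alternative activation, had the largest difference of all genes at 4.54 ± 0.76 (adjusted p = 0.000422). Its levels were 4.87, 8.88 and 12.05 in rich lymphomas and 3.82, 4.11 and 5.52 in poor lymphomas. Its spread within the rich group was wide, and the lowest of these lymphomas lay inside the poor range. Il4ra, the receptor chain for IL-4, rose by 1.07 ± 0.22 (adjusted p = 0.00195), Egr2, a transcription factor induced by IL-4, by 0.99 ± 0.21 (adjusted p = 0.00221) and Il10 by 0.80 ± 0.27 (adjusted p = 0.0319). Il10 was above the array median in 1 rich lymphoma only, and its call was lost when D163, D83, D88, D89 or D56 was left out (0.68 to 0.78). In total 8 of 18 genes of the alternative list were higher and none lower, and 5 were higher without D163 or without D83, while Chil3 and Retnla, classic markers of this state in mice, did not pass the test (0.33 and 0.07). Of the 18, 4 were above their array's median in rich lymphomas only and entered the test through that group.

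Of 14 inflammatory genes 8 were higher and none lower, and 2 of the 14 were above their array's median in rich lymphomas only. Saa3, an acute phase protein, had levels of 6.76, 10.21 and 12.38 in rich lymphomas and 6.08, 6.40 and 7.04 in poor lymphomas. The groups overlapped only at their ends, with a difference of 3.64 ± 0.55 (adjusted p = 0.000205). Cd86, a costimulatory ligand, rose by 1.89 ± 0.33 (adjusted p = 0.000605), Nfkbiz, a regulator of NF-kB targets, by 1.90 ± 0.27 (adjusted p = 0.000124) and Ccl3, a macrophage chemokine, by 2.43 ± 0.44 (adjusted p = 0.000771). Casp1, the inflammasome protease, rose by 2.85 ± 0.41 (adjusted p = 0.000164). Each activation list had 2 genes called with the germinal centre covariate.

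Chemokines that attract monocytes and lymphocytes were higher in the rich group. Of 10 tested genes 8 were higher and none lower (median 2.03). Of the 10, 3 were above their array's median in rich lymphomas only and entered the test through that group. Ccl8, a ligand of monocyte receptors, had levels of 6.19, 8.84 and 11.88 in rich lymphomas and 4.99, 5.42 and 5.89 in poor lymphomas, with no overlap. Its difference was 3.52 ± 0.55 (adjusted p = 0.000278), beside 2.83 ± 0.43 for Ccl6 (adjusted p = 0.000228) and 2.15 ± 0.46 for Ccl9 (adjusted p = 0.00247). Cxcl13, which attracts B cells to follicles, rose by 1.67 ± 0.38 (adjusted p = 0.0037).

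The growth factor system and the checkpoint genes moved less evenly. Csf1, the ligand of Csf1r, differed by -0.01 (adjusted p = 0.962), whereas Csf2ra and Csf2rb, chains of the GM-CSF receptor, were higher by 0.70 ± 0.21 (adjusted p = 0.0163) and 1.22 ± 0.33 (adjusted p = 0.01). Cd274, the checkpoint ligand PD-L1, had levels of 6.77, 8.64 and 9.63 in rich lymphomas and 5.89, 6.49 and 6.93 in poor lymphomas. Its groups crossed narrowly, at a difference of 1.88 ± 0.29 (adjusted p = 0.000226). Cd47, the signal against uptake that Sirpa reads, differed by 0.40 ± 0.20 (adjusted p = 0.129) and was not called, with levels from 10.69 to 12.10 in rich lymphomas and from 10.77 to 11.92 in poor ones. Calr, which exposes dying cells to uptake when on the surface, rose by 0.61 ± 0.14 (adjusted p = 0.00344). Among 7 ligands and receptors that can keep B cells alive or, like Cxcl13, attract them, 4 were higher and none lower. Cxcl13, counted among the chemokines too, was 1 of the 4, beside Igf1 (1.47 ± 0.33, adjusted p = 0.00327) and Il15 (0.89 ± 0.29, adjusted p = 0.0268). Without D163 Il15 missed the threshold (0.86, adjusted p = 0.0601), and 2 of the 7 were called. Of these 7 genes 4 were above the array median in rich lymphomas only (Igf1 in 5, Il15 in 1) and entered the test through that group, so the count is a description.

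Genes of cytotoxic lymphocytes rose with the macrophage genes in most, but not all, rich lymphomas. Of 11 genes of NK and cytotoxic T cells 9 were higher and 1 lower (median 1.61), and 2 of the 11 were above their array's median in rich lymphomas only. Gzmb, granzyme B, had levels of 4.11, 8.18 and 9.89 in rich lymphomas and 3.88, 4.68 and 5.03 in poor lymphomas. Some rich lymphomas were as low as the poor ones, and the difference was 2.98 ± 0.66 (adjusted p = 0.00315). Gzmk and Ccl5, products of the same cells, rose by 2.56 ± 0.59 (adjusted p = 0.00399) and 2.64 ± 0.68 (adjusted p = 0.00737), and Ifng, the gene of interferon gamma, by 1.47 ± 0.39 (adjusted p = 0.00894), although Ifng was above the array median in 1 rich lymphoma only and entered the test through it. Prf1, perforin, was slightly lower, from a probe set above the array median in 1 poor lymphoma and no other, through which it entered the test (-0.26 ± 0.09, adjusted p = 0.0255; -0.22 and 0.0814 without D163). The mean of the list was 2.56 above the set mean in D46 and 2.12 in D163, but -1.13 in D35 and -1.03 in D34, where it lay below all poor lymphomas (-1.02 to 0.18).

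T cell genes were called higher at a share near the 12.1% of all genes. Of 13 tested, 2 were higher, Cd4 (0.83 ± 0.28, adjusted p = 0.0327) and Cd28 (1.09 ± 0.40, adjusted p = 0.047), and neither passed the test when D59, D163, D78, D46 or D88 was left out (0.69 to 0.81 for Cd4 and 0.89 to 1.13 for Cd28 in the fits without a call, 7 and 15 of 20). Dendritic cell genes were higher in 7 of 10 and lower in none, such as Itgax, the integrin CD11c (1.41 ± 0.34, adjusted p = 0.00523), and in 4 of 10 without D163. Neutrophil granule genes gave 0 higher and 1 lower of 11, Mpo, myeloperoxidase (-1.34 ± 0.50, adjusted p = 0.0471), which lost its call in 13 of 20 such fits (D59, D163 and D78 among those left out; -1.17 to -1.39). The median difference of the 11 neutrophil genes was nevertheless -1.30. Their list mean ran from -2.06 to 2.15 in rich lymphomas (median -0.71) and from -1.45 to 1.62 in poor ones (median 1.19). With the germinal centre covariate no gene of the cytotoxic, T cell, dendritic or neutrophil lists was called. The differences of Gzmb (2.57), Gzmk (2.13) and Mpo (-1.93) nevertheless stayed large in that fit, while those of Cd4 (-0.15) and Cd28 (-0.08) were near 0.

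Connective tissue genes were very unevenly spread. Of 17 stroma and endothelium genes 5 were higher and none lower, and 9 of the 17 were above their array's median in rich lymphomas only. The 5 became 3 in 10 of the 20 fits that left out 1 lymphoma, those without D78, D35, D85, D63, D56, D84, D93, D57, D81 or D64. Dcn, decorin, a proteoglycan of fibroblasts, had levels of 6.33, 8.71 and 12.89 in rich lymphomas and 5.54, 5.74 and 6.10 in poor lymphomas, without overlap (2.93 ± 0.66, adjusted p = 0.00327). Col3a1 and Col1a2, collagen chains, rose by 3.20 ± 0.85 (adjusted p = 0.00896) and 2.58 ± 0.74 (adjusted p = 0.014). The list mean was 4.58 above the set mean in D59, 2.09 in D35, 1.70 in D78 and 1.41 in D34, and -0.38 to 0.88 in the remaining rich lymphomas, against -0.58 to -0.10 in poor lymphomas. With the stroma mean as a covariate 13 of 20 macrophage identity genes, 16 of 24 lysosome genes and 8 of 19 clearance genes were called.

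**Figure D3:**
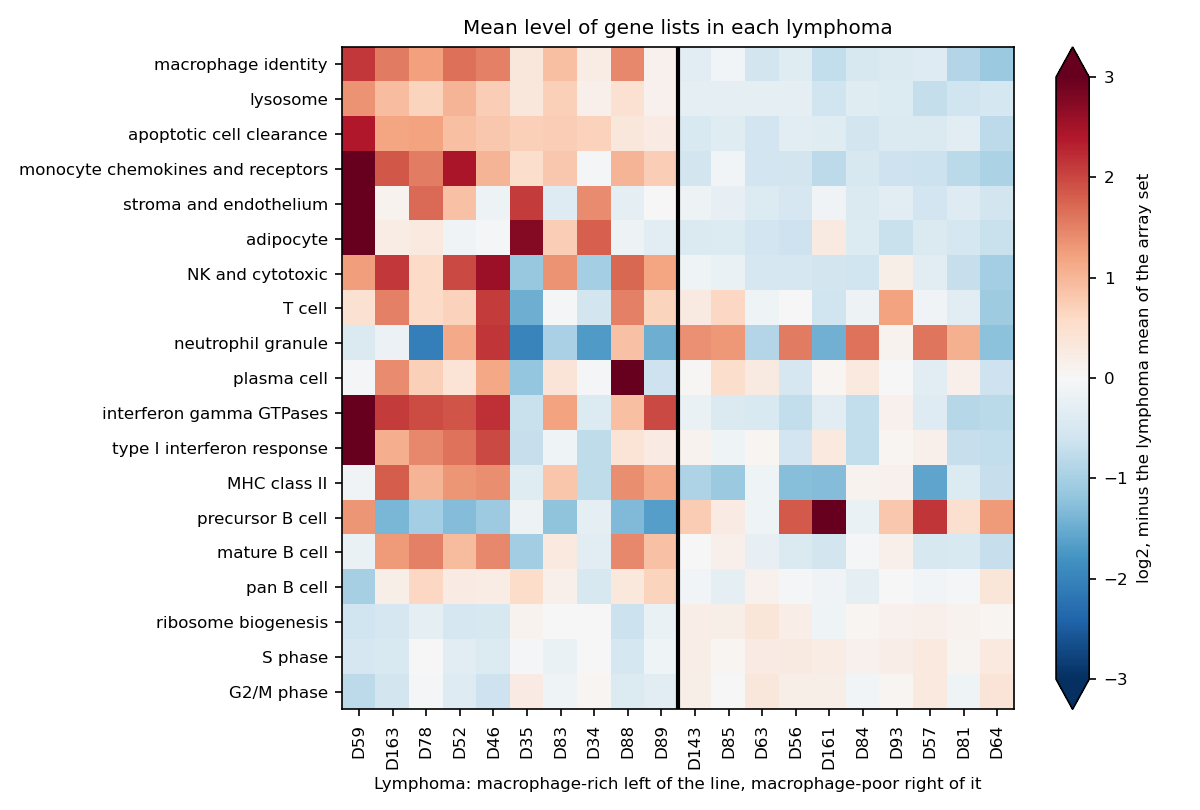
Mean of each gene list (rows) in each of the 20 lymphomas (columns, each group ordered from its highest to its lowest score), in log2 units from the lymphoma mean of the array set; colours saturate at 3. The rows of macrophage identity, lysosome and apoptotic cell clearance are above 0 in all 10 rich lymphomas, while stroma genes peak in D59, D35, D78 and D34, adipocyte genes peak in D59, D35 and D34, and cytotoxic and interferon gamma genes are low in D35 and D34.

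Antigen presentation and interferon-induced genes were higher in most rich lymphomas. All 10 tested genes of the interferon gamma list, mostly GTPases that defend against pathogens inside cells, were higher (median 1.78). Of the 10, 1 was above its array's median in rich lymphomas only and entered the test through that group. Without D163 9 of the 10 were called. Gbp2 had levels of 6.21, 10.07 and 11.27 in rich lymphomas and 5.56, 6.52 and 7.53 in poor lymphomas. It remained within the poor range in a few rich lymphomas, and the difference was 2.85 ± 0.58 (adjusted p = 0.00175). Iigp1, another of these GTPases, rose by 3.42 ± 0.55 (adjusted p = 0.000313), and Cxcl9, a chemokine induced by interferon gamma, by 3.12 ± 0.60 (adjusted p = 0.0013). The list mean ran from 0.90 to 3.07 in 8 rich lymphomas, with -0.66 in D35 and -0.41 in D34, against -0.86 to 0.14 in poor lymphomas. Of 16 type I interferon response genes 7 were higher and none lower, among them Zbp1, a sensor of nucleic acids (1.78 ± 0.47, adjusted p = 0.0088). Of these 16 genes 4 were called when D163, D52, D46, D81 or D64 was left out. Of the 16, 2 were above their array's median in rich lymphomas only.

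All 7 tested class II genes of the major histocompatibility complex were higher (median 1.42). H2-Aa, a class II chain, had levels of 11.15, 12.56 and 13.24 in rich lymphomas and 10.24, 10.93 and 12.17 in poor lymphomas. The groups overlapped, at a difference of 1.32 ± 0.28 (adjusted p = 0.00222). B cells carry class II molecules too, and 8 of 10 class I presentation genes were higher as well, including Tapbp, a loading factor (0.95 ± 0.16, adjusted p = 0.000582) and B2m, the light chain of class I (0.70 ± 0.16, adjusted p = 0.00314). With the germinal centre covariate 2 of the 10 interferon gamma genes and none of the class I or class II genes were called. The differences of the class I genes Tapbp (0.81) and B2m (0.60) moved little in that fit, and that of H2-Aa was 0.65. With the precursor B cell mean as a covariate no class II gene was.

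Markers of the stage of B cell development differed between the groups. Of 14 genes of precursor B cells 7 were lower in rich lymphomas and none higher (median -1.56), and 4 were lower without D163. With the germinal centre covariate none of the 14 was called, at a median of -0.88. Sox4, a transcription factor of early B cells, had the largest fall of all genes, with levels of 3.85, 5.85 and 11.43 in rich lymphomas and 8.53, 10.82 and 11.98 in poor lymphomas. It stayed high in a few rich lymphomas, such as D59 with 11.43 and D34 with 9.80, and the difference was -4.20 ± 0.84 (adjusted p = 0.00164). Rag1, the recombinase of immunoglobulin genes, fell by 2.99 (SE 0.90, adjusted p = 0.0172; -2.50 and 0.0627 without D163), Cd93, a receptor of immature B cells, by 2.46 (SE 0.66, adjusted p = 0.00984) and Myb, a transcription factor of progenitors, by 1.42 (SE 0.38, adjusted p = 0.00962). Enpep, the BP-1 antigen of precursor B cells, fell by 2.69 (SE 0.98, adjusted p = 0.0443), a call lost when any of 15 lymphomas, such as D163, D78 or D64, was left out (-2.43 to -2.75).

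Mature B cell genes were higher in 4 of 10 and lower in none. With the germinal centre covariate none of the 10 was called, and their median difference went from 1.09 to -0.21. The list mean was -0.2 in D59, -0.35 in D34 and -1.04 in D35, and 0.29 to 1.52 in the remaining rich lymphomas. In poor lymphomas it ran from -0.68 to 0.16. Cd83, an activation marker of B cells and dendritic cells, had levels of 5.54, 9.64 and 11.09 in rich lymphomas and 4.81, 5.38 and 6.48 in poor lymphomas. Most rich lymphomas exceeded every poor one, with a difference of 3.64 ± 0.58 (adjusted p = 0.000298). Cd40, the receptor for T cell help, rose by 1.34 ± 0.29 (adjusted p = 0.00279) and Bcl6, the repressor of germinal centre B cells, by 1.73 ± 0.50 (adjusted p = 0.0146). Cd79a, a chain of the B cell receptor complex, was above the array median in all 20 lymphomas and differed by -0.60 ± 0.27 (adjusted p = 0.0985). Of 11 pan B cell genes, Cd79a among them, 2 were higher and none lower (median -0.07), where 12.1% of all genes were higher. The 2 were Ptprc (0.85 ± 0.14, adjusted p = 0.000343) and Cd22 (0.86 ± 0.28, adjusted p = 0.0251). Ptprc encodes CD45, which other leukocytes carry too, so its call is not particular to B cells. Without D163 Cd22 missed the threshold (0.81, adjusted p = 0.0642). Ell2 and Xbp1, which serve antibody secretion, rose by 3.65 ± 0.65 (adjusted p = 0.000665) and 1.55 ± 0.28 (adjusted p = 0.000902). In the plasma cell list 3 of 10 genes were higher and none lower, beside 12.1% of all genes higher.

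Some of the steepest differences belonged to genes that stood outside the gene lists. Basp1, a membrane-bound protein also studied as a corepressor, had a median level of 9.80 in rich lymphomas and of 5.95 in poor lymphomas, with no overlap between a lowest rich level of 7.07 and a highest poor level of 6.6, and a difference of 4.09 ± 0.60 (adjusted p = 0.000177). It was highest in D78, D163, D88 and D46, which included the 3 rich lymphomas with high Gcsam. Basp1 was above the array median in all 10 rich lymphomas, however, and Gcsam in these 3 alone. The covariate made of both genes thus does not follow Gcsam alone. App, the amyloid precursor protein, separated the groups in full by 3.5 ± 0.35 (adjusted p = 5.31e-06). Cplx2, a regulator of vesicle release, had levels of 5.73, 6.35 and 8.03 in rich lymphomas and 7.32, 9.94 and 10.40 in poor lymphomas. The poor lymphoma D84 alone lay within the rich range, and the difference was -3.23 ± 0.34 (adjusted p = 7.59e-06). Uchl1, a ubiquitin hydrolase, fell by 2.62 (SE 0.55, adjusted p = 0.00227), Akap12, a kinase anchoring protein, fell by 2.60 (SE 0.63, adjusted p = 0.00537) and Alpl, tissue-nonspecific alkaline phosphatase, by 2.58 (SE 0.52, adjusted p = 0.00167).

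Genes that mark sex were also unequal between the groups. Eif2s3y had levels of 3.04, 3.54 and 8.79 in rich lymphomas and 3.78, 8.70 and 9.08 in poor lymphomas. D46 was the only rich lymphoma with a high value, and the difference was -3.37 ± 0.88 (adjusted p = 0.00795). Xist, expressed from the inactive X chromosome, was higher by 2.92 ± 0.95 (adjusted p = 0.0267; 2.91 and 0.0539 without D163), with 6.31, 12.31 and 12.79 in rich lymphomas and 6.71, 7.33 and 12.61 in poor lymphomas. With Eif2s3y as a covariate 13 of 20 macrophage identity genes and 15 of 24 lysosome genes were called, against 0 of 17 stroma genes and 1 of 16 type I interferon genes.

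Growth genes were lower in the rich group. Of 21 ribosome biogenesis genes 18 were lower and none higher (median -0.49), and the same counts were found for 21 S phase genes (median -0.48), beside 14 of 22 G2/M genes (median -0.44). The falls were small and tight. Mcm3, a subunit of the replicative helicase, had levels of 10.18, 10.67 and 11.15 in rich lymphomas and 11.18, 11.34 and 11.53 in poor lymphomas. The groups did not overlap, and the difference was -0.67 ± 0.11 (adjusted p = 0.000382). Fen1, the flap endonuclease of DNA replication, fell by 0.59 (SE 0.09, adjusted p = 0.000223), Nop56, a nucleolar protein of ribosome assembly, by 0.59 (SE 0.12, adjusted p = 0.00131) and Cenpf, a kinetochore protein, by 0.87 (SE 0.16, adjusted p = 0.00107). Myc itself differed by -0.37 ± 0.23 (adjusted p = 0.219), and its levels in rich lymphomas (9.26 to 11.30) spanned those of the poor lymphomas. Without D163 8 of the 22 G2/M genes were called. With the germinal centre covariate 3 of the 21 S phase genes and none of the ribosome biogenesis or G2/M genes were called, at medians of -0.41, -0.34 and -0.34, and Nop56 (-0.42) stayed lower by a similar amount.

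Oxidative phosphorylation differed less, with 3 of 24 genes lower and none higher, such as Cox6c (-0.25 ± 0.08, adjusted p = 0.022; -0.22 and 0.0642 without D163), where 18.5% of all genes were lower. Stress and signalling lists held higher members. Of 17 p53 target genes 7 were higher and none lower, including Cdkn1a, the cell cycle inhibitor p21 (1.53 ± 0.43, adjusted p = 0.012), and 2 of them were called without D163, against 4 without D52, D56 or D93. Of 15 genes of the unfolded protein response 8 were higher, including Dnajb9, an endoplasmic reticulum chaperone (1.10 ± 0.22, adjusted p = 0.00151), and of 14 immediate early genes 7 were higher, including Egr1, which responds to growth signals (2.37 ± 0.44, adjusted p = 0.000998). Glycolysis and hypoxia genes were higher in 6 of 17, such as Ddit4, an mTOR inhibitor induced by stress, which did not overlap between the groups (1.94 ± 0.32, adjusted p = 0.000343). Without D163 3 of 17 glycolysis and hypoxia genes, 5 of 15 genes of the unfolded protein response, 4 of 14 immediate early genes and 1 of 24 oxidative phosphorylation genes were called, and 6 of the last without D83 or D34. None of these lists kept a call with the germinal centre covariate, although Ddit4 (1.6) and Cox6c (-0.26) differed by similar amounts in that fit.

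**Figure D4:**
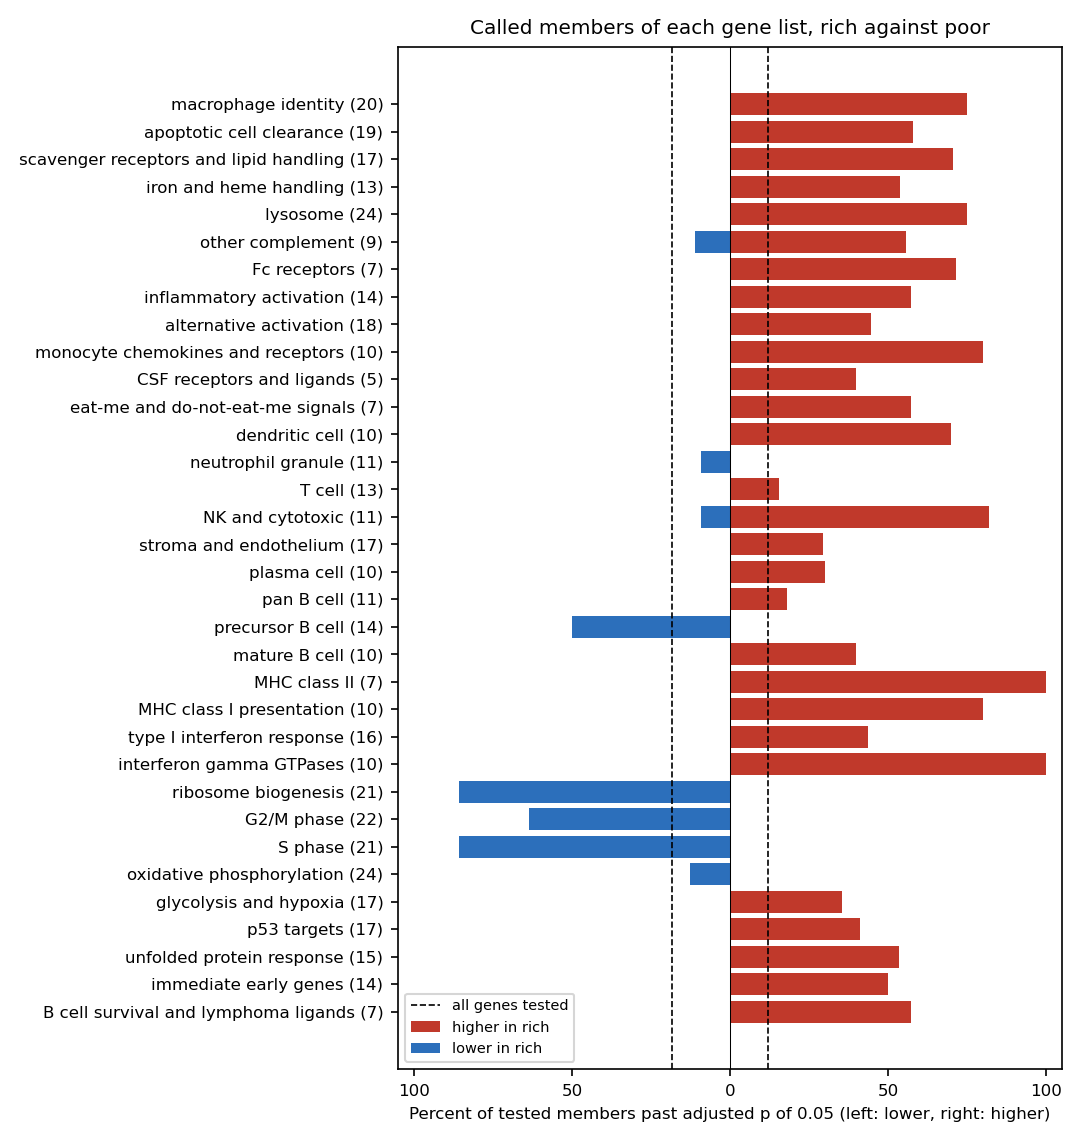
Percent of each list's tested members (number in brackets) called higher (red, right) or lower (blue, left) in macrophage-rich against macrophage-poor lymphomas; dashed lines mark the 12.1% higher and 18.5% lower of all genes. Interferon gamma GTPases and class II genes are all higher, and S phase and ribosome biogenesis genes are lower in 18 of 21 each.

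The 23 lymphomas in neither group were described by the slope of each gene on the score (range -1.09 to 1.14). The score is the one that ranked all 43 lymphomas, and the 23 entered its centring, so the slopes come from other lymphomas but are no independent check. Of the 1041 genes higher in rich lymphomas 940 (90.3%) had a positive slope there, against 49% of all genes, and 1204 of the 1590 lower genes (75.7%) had a negative slope, against 51%. The cell cycle lists, lower in rich lymphomas, did not follow, with 19 of 22 G2/M genes and 14 of 21 S phase genes having slopes above 0. Of the 21 ribosome biogenesis genes, also mostly lower in rich lymphomas, 7 had slopes above 0, against 49% of all genes. At the adjusted threshold 9 genes rose with the score (0.105%) and 5 fell (0.0583%), and all 9 were among the higher genes above. Ms4a6d, a relative of Ms4a7 in myeloid cells, had the smallest p-value, with a slope of 0.88 ± 0.13 log2 per unit of score (adjusted p = 0.00573). Casp1 had a slope of 1.74 ± 0.33, Tgm2 of 0.77 ± 0.15 and Ms4a7 of 0.48 ± 0.09 (adjusted p = 0.0385 each). Cfp rose by 0.66 ± 0.13 per unit (adjusted p = 0.0422) and App by 0.70 ± 0.14 (adjusted p = 0.0407), and the others were Fcgr1, Irgm2 and Slc35b1. Mfge8, which bridges dying cells to phagocytes, fell by 0.65 per unit (SE 0.13, adjusted p = 0.0385) but differed by -0.10 between the groups (adjusted p = 0.862). The other 4 falling genes were Nnt, Cdkal1, Tubb2b and Timm44. Without D117 and D55, the lymphomas farthest from the median score, 8 genes rose and 6 fell, of which 1 and 0 were the same, so these single calls rested on those lymphomas.

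**Figure D5:**
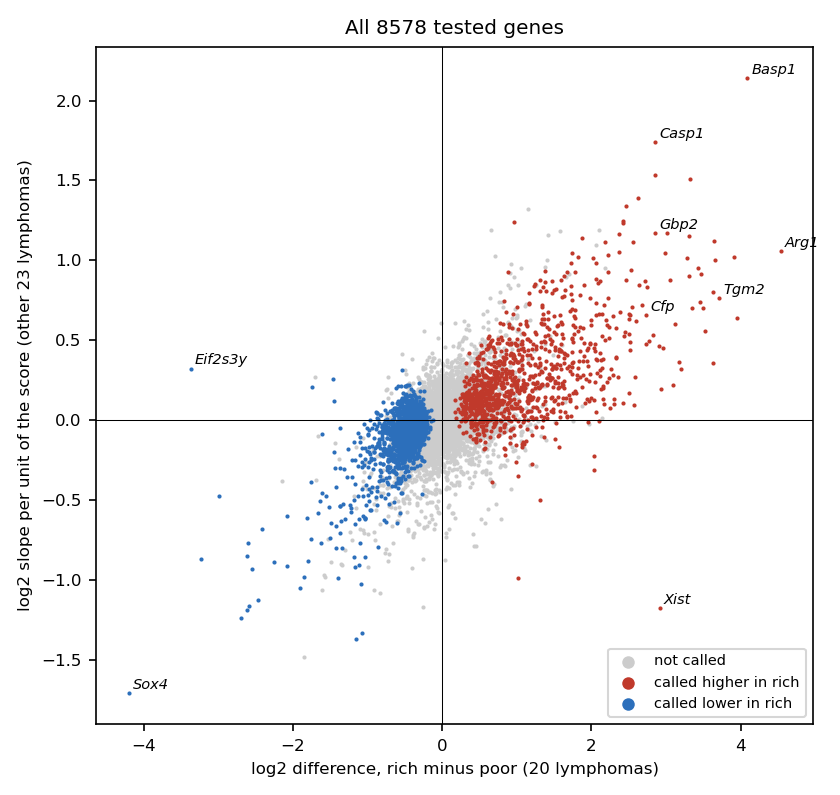
Log2 difference between macrophage-rich and macrophage-poor lymphomas (horizontal axis, 20 lymphomas) against the log2 slope per unit of score in the other 23 lymphomas (vertical axis) for 8578 genes; red and blue mark genes called higher and lower in rich lymphomas. Of the red genes 940 of 1041 lie above 0 on the vertical axis; Xist and Eif2s3y have slopes of the opposite sign to their differences.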

How the data were processed

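Each of 43 lymphomas and 1 spleen had its RNA measured on 1 Affymetrix mouse array. The deposited table holds log2 values for each probe set, which the authors produced by RMA (affy, version not given), per the submitters' processing notes. Arrays have no read depth, so their number limits the precision. The columns fell into 2 array sets by title number (up to D117, 36 lymphomas; above, 7), a split of the column medians that the labels do not explain.

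Of 22626 probe sets other than 64 controls, 20380 carried 1 gene symbol in the platform annotation and were used, while 691 with several and 1555 with none were left out. Of those used, 20351 matched GRCm38.p6 by Entrez identifier. The probe set with the highest mean stood for each of 12393 genes, and genes had to exceed the array median in 1 or more of the 43 lymphomas. The 4 score genes chose the groups and were left out of the tests, which left 8578 genes. The groups were compared with limma 3.58.1 in R 4.3.3 (array set as a term, eBayes with intensity trend, two-sided, Benjamini-Hochberg at 0.05), and the other 23 lymphomas by the slope on the score in the same settings. The script was tested on simulated data. Differences are rich minus poor, with SE.

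The members, gene lists, tests and alternatives were chosen with earlier results of these data known. Named were the 12 largest differences in each direction, in each list the up to 3 members of largest statistic, the 8 steepest rising slopes past the threshold and 10 single genes (1 of them is not reported here). A further 21 genes, such as Cd5l, Axl, Spi1 and Xist, and those given only as missing the threshold or falling with the score, were chosen after their values were seen. The covariates Eif2s3y, Gcsam with Basp1, precursor B cell and type I interferon genes, and the slope without 2 lymphomas, were added after seeing the data. Other alternatives changed the array set, group size, score, filter, probe set rule, scaling, weights and covariates.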

Additional observations from a re-analysis of the deposited data

Results flagged for a closer look

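In 284 groups (142 named genes in 10 rich or 10 poor lymphomas) 19 had a highest or lowest lymphoma whose gap to the next, as a share of the group's range, exceeded Dixon's critical value for 10 samples, where chance flags about 1 in 20 groups. D84, a macrophage-poor lymphoma, gave 6 of them: Apoe at 9.46, Fcer1g at 10.09 and Gcsam at 6.64 were the highest of the poor group, and Sox4 at 8.53, Cplx2 at 7.32 and Ptgr1 at 10.32 the lowest. In each of these 6 genes D84 lay on the side of the macrophage-rich lymphomas.

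In the rich group D59 was highest for Enpep (10.78), Adgre1 (9.79) and Axl (9.98), D46 was highest for Eif2s3y (8.79) and lowest for Xist (6.31), D163 was lowest for Uchl1 (3.55) and D34 lowest for Casp1 (4.83). In the poor group D81 was highest for Arg1 (5.52) and lowest for Aldoa (9.72), D57 was highest for Zmat3 (8.79) and Egr1 (9.51), D161 was highest for Fcgr3 (8.65) and D63 for Bub1b (10.48). What set these lymphomas apart was not tested.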

How the results depend on the processing

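Of 1041 genes higher and 1590 lower, fits without 1 lymphoma gave 784 to 1170 and 1085 to 1839; the lowest counts of both were without D163. Without the array set 564 and 933 were called, in title numbers up to D117 alone 759 and 1051, in those above D117 (1 rich and 2 poor lymphomas) 0 and 0 by limma (811 and 605 at an unadjusted p under 0.05), and with groups of 7, 722 and 886. Eif2s3y as a covariate left 532 and 599, Gcsam with Basp1 173 and 139, type I interferon genes 408 and 450, and precursor B cell genes 731 and 924. Without the 9 rich lymphomas that stood apart, which leaves D89 alone in the rich group, its spread taken from the poor group, 478 and 231 were called. The score without Aif1 gave the same groups.

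For the slopes, 9 rising and 5 falling genes became 2 and 0 without the array set, 2 and 1 in title numbers up to D117, 5 and 2 without the filter and 1 and 0 with the germinal centre covariate. Of 137 called named genes 120 kept their call without any 1 lymphoma. Differences changed sign for Cox7a2 (0.02) in title numbers above D117, Prf1 (0.23) over the mean of its probe sets and Xist (-0.62) with Eif2s3y as a covariate. Without the lymphomas that stood apart they did so for Cd4 (-0.07), Cd79a (0.50), Bcl6 (-0.01), Cdkn1a (-0.53), Igf1 (-0.03), Slc35b1 (-0.35), Myc (0.05), Vcam1 (-0.08), Slc40a1 (-0.78), Gcsam (-0.54), Spi1 (-0.20) and Cd55 (0.57). With the germinal centre covariate they did so for Cd4 (-0.15), Cd28 (-0.08), Cd79a (0.12), Bcl6 (-0.40), Fas (-0.26) and Myc (0.35). The causes were not tested. Basp1 itself did not overlap between the groups, so that covariate and group share much of their variation. No paired analysis was possible because the lymphomas carry no numbers that pair the groups.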

Other observations

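The spleen, which the labels put apart from the lymphomas, carried the macrophage genes at a high level. Its 4-gene score was 2.82 above the mean of the 7 lymphomas of its array set. C1qb was 11.09 in the spleen, against 5.39 to 11.83 in those lymphomas, and Csf1r 11.55 against 7.86 to 11.91, with D163 alone above the spleen in both genes. Cd68 was 9.09 in the spleen, against 6.31 to 10.65, where D163 and D121 exceeded it. For Adgre1 the spleen, with 8.42, lay above all 7 lymphomas (6.21 to 8.08). The spleen is a single array and was not tested.

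Among the macrophage-rich lymphomas 2 patterns stood beside each other, and not every lymphoma followed one of them. D35 and D34 had stroma means of 2.09 and 1.41 and adipocyte means of 2.76 and 1.79, with cytotoxic means of -1.13 and -1.03 and class II means of -0.36 and -0.77. D46, D163, D52 and D88 had cytotoxic means of 2.56, 2.12, 1.99 and 1.72 and class II means of 1.39, 1.82, 1.32 and 1.39, with stroma means of -0.15, 0.11, 0.88 and -0.28. D59 was high in both stroma (4.58) and cytotoxic genes (1.26), with a class II mean of -0.11. D78 had a stroma mean of 1.70 beside a cytotoxic mean of 0.57 and a class II mean of 1.01. D83 and D89 had cytotoxic means of 1.34 and 1.19, class II means of 0.83 and 1.13 and stroma means of -0.38 and 0. These lymphomas were set side by side after their values were seen, and the difference was not tested.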
